A study of Mus musculus with 11 samples.

Results

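The genes described here are 10 regulators of the G1 phase of the cell cycle and of entry into S phase. They are the D-type cyclin genes Ccnd1, Ccnd2 and Ccnd3, the E-type cyclin genes Ccne1 and Ccne2, the inhibitor genes Cdkn1a, Cdkn1b and Cdkn1c, and the transcription factor genes Myc and E2f1. They were found in the table by gene symbol, with no threshold on measured values, but the set was proposed with earlier results of these data known, so its counts are a description beside the shares of all genes. All 10 were found among the 30790 genes tested, each on 1 probe set (a group of array probes for a single transcript), and no filter on low values was applied.

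RNA was measured on 11 arrays in vascular fragments of the mouse brain, prepared from the hemisphere in which the middle cerebral artery had been occluded (MCAO, a stroke model). Every mouse was an adult C57BL/6 male with MCAO that received either imatinib, which blocks ABL, KIT and PDGF receptor tyrosine kinases, or phosphate-buffered saline (PBS) as the control. At 24 h after MCAO there were 3 imatinib and 3 PBS arrays, and at 3 h there were 2 imatinib and 3 PBS arrays. Treatment was given 4 times in the 24 h groups and 3 times in the 3 h groups, which means that treatment number and time after MCAO cannot be told apart. The labels give neither the dose of imatinib nor whether each array came from a separate animal, so p-values measure the spread between these arrays, which may be technical. Vessels from mice without MCAO were not analysed here.

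Growth signals induce Myc, a transcription factor that raises ribosome and nucleotide synthesis, and the D-type cyclins, which activate the kinases CDK4 and CDK6. These kinases phosphorylate the retinoblastoma protein and its relatives, which releases E2F factors such as E2F1, and E2F factors in turn induce the E-type cyclins and the genes of DNA replication. The CIP/KIP proteins p21 (Cdkn1a), p27 (Cdkn1b) and p57 (Cdkn1c) bind and inhibit the cyclin E complex with CDK2 and hold cells in G1. Endothelial cells of the adult brain are mostly quiescent.

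Values are log2 array signals, on which a difference of 1 is a 2-fold change. The small number of arrays limits the precision of each mean. Array medians ranged from 5.17 to 5.25. The labelled tissue was checked against marker genes. All 16 endothelial, all 10 pericyte and all 8 microglial markers had mean signals above the 75th percentile of probe sets. So did 5 of 8 astrocyte, 6 of 10 monocyte and macrophage, 4 of 10 neutrophil and 2 of 5 choroid plexus markers. Among neuronal markers 0 of 9 did, and among oligodendrocyte markers 0 of 6. In such bulk samples, fewer cells of a type and less RNA per cell cannot be told apart.

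At 24 h against 3 h, Ccnd1 and Myc rose and all 3 CIP/KIP inhibitor genes, Cdkn1a, Cdkn1b and Cdkn1c, fell in both treatments. Ccne1 passed the test as higher in the imatinib arrays and E2f1 in the PBS arrays. Of the 10 genes, 6 passed an adjusted p of 0.05 in limma in imatinib, 3 higher and 3 lower, against 13.1% of all genes. In PBS 6 also passed, 3 higher and 3 lower, against 16.6% of all genes. At an unadjusted p under 0.05, 7 of the 10 passed in imatinib (25.0% of all genes) and 7 in PBS (27.3%). The median difference of the 10 was 0.15 in imatinib (all genes -0.04) and 0.06 in PBS (all genes -0.02). Ccnd2, Ccnd3 and Ccne2 passed in neither.

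**Figure D1:**
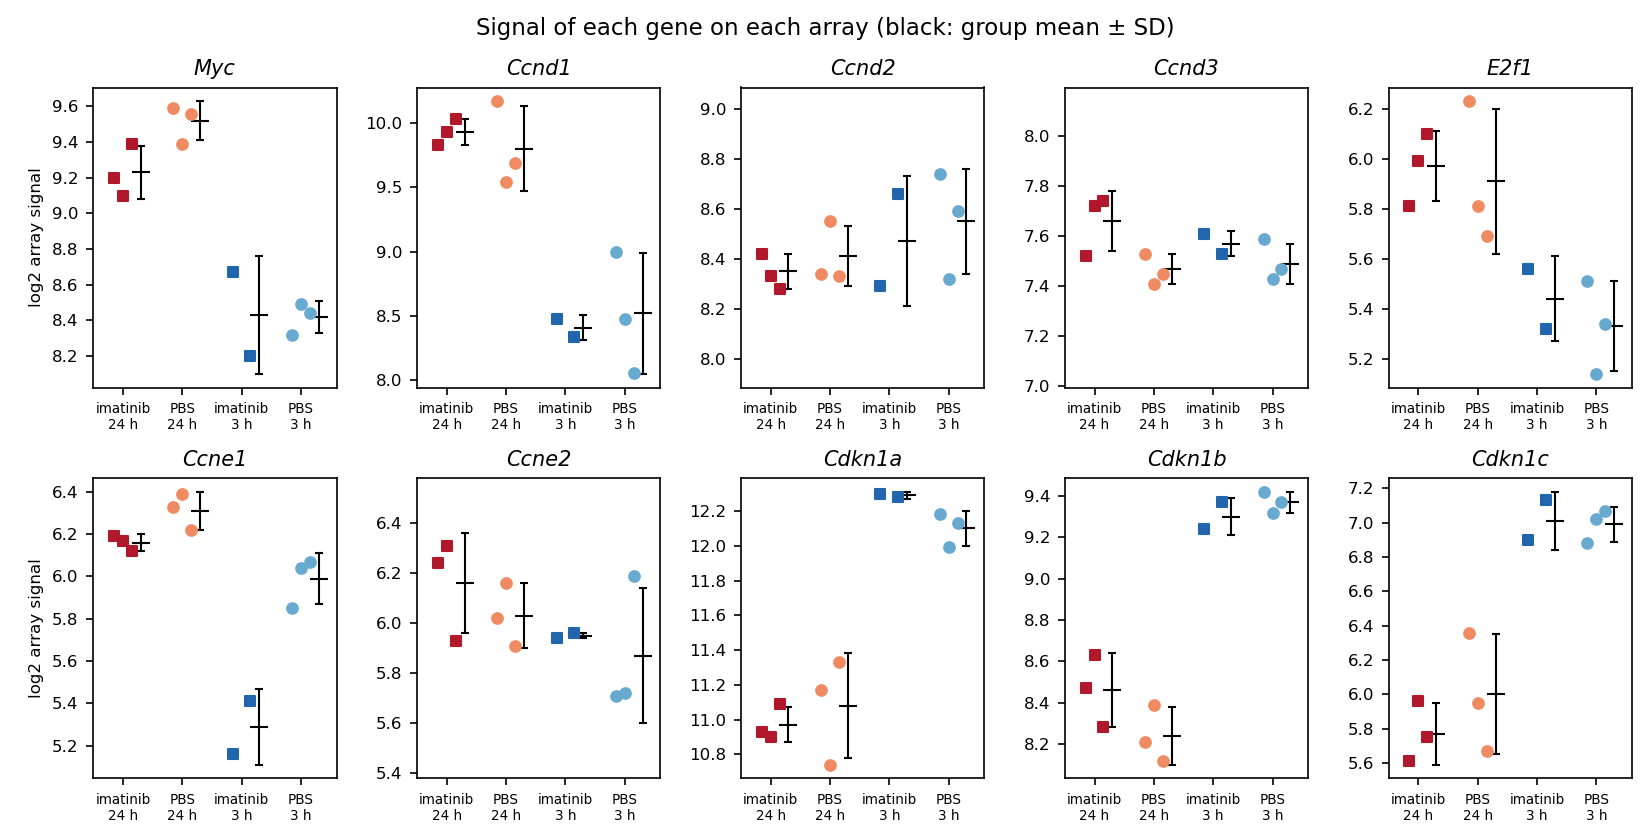
Log2 signal of each of the 10 genes on each of the 11 arrays (points) with the mean ± SD of each group (black), 1 panel per gene with its own signal axis, for imatinib at 24 h, PBS at 24 h, imatinib at 3 h and PBS at 3 h. The 6 arrays at 24 h lie above all 5 arrays at 3 h for Ccnd1, Ccne1, Myc and E2f1 and below them for Cdkn1a, Cdkn1b and Cdkn1c.

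The plot of signals by array shows this separation gene by gene. All 6 arrays at 24 h were above all 5 arrays at 3 h for 4 of the 10 genes, a pattern that 10.0% of all genes had. All 6 were below for 3 of the 10, against 7.02% of all genes. Within a treatment, the 24 h arrays were all above the 3 h arrays for the same 4 genes and all below for the same 3. In imatinib, where 3 arrays are set against 2, 42.3% of all genes did not overlap, 19.4% wholly above and 22.8% wholly below. In PBS 29.9% did not overlap, 15.2% wholly above and 14.7% wholly below.

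Myc, the upstream growth regulator of the set, had signals of 9.20, 9.10 and 9.39 in imatinib at 24 h and 9.59, 9.39 and 9.56 in PBS at 24 h. At 3 h it had 8.67 and 8.20 in imatinib and 8.32, 8.49 and 8.44 in PBS. Every 24 h array was above every 3 h array, and the imatinib arrays at 3 h were the most widely spread of the 4 groups. Myc rose by 0.80 ± 0.15 (SE) in imatinib, 1.74-fold, with an adjusted p of 0.00426 in limma. In PBS it rose by 1.10 ± 0.13, 2.14-fold (adjusted p = 0.000205). Without imatinib 3 h replicate 2, the rise in imatinib was 0.56 and no longer passed (adjusted p = 0.0537).

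Ccnd1 encodes cyclin D1, the D-type cyclin most often induced by growth factors. Its signals were 9.83, 9.93 and 10.03 in imatinib at 24 h and 10.17, 9.54 and 9.69 in PBS at 24 h, against 8.48 and 8.34 in imatinib at 3 h and 9.0, 8.48 and 8.06 in PBS at 3 h. The 24 h arrays lay wholly above the 3 h arrays, and the spread was widest in PBS at 3 h. Ccnd1 rose by 1.52 ± 0.24 in imatinib, 2.87-fold, the largest change of the 10 genes in either treatment (limma, adjusted p = 0.0017). In PBS it rose by 1.28 ± 0.22, 2.43-fold (adjusted p = 0.00167).

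The other D-type cyclins, which activate the same kinases, did not pass in either treatment. Ccnd2 (cyclin D2) ranged from 8.28 to 8.55 over the 6 arrays at 24 h (median 8.34) and from 8.29 to 8.74 over the 5 at 3 h (median 8.59), and the times overlapped. Its differences were -0.13 in imatinib (95% interval -0.46 to 0.20) and -0.15 in PBS (-0.44 to 0.15). Ccnd3 (cyclin D3) ranged from 7.41 to 7.74 at 24 h and from 7.43 to 7.61 at 3 h, with a median of 7.53 at both times. Its differences were 0.09 in imatinib (-0.15 to 0.32) and -0.03 in PBS (-0.24 to 0.18), and none of these intervals reaches the rises of 1.52 and 1.28 in Ccnd1.

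E2f1, the activator E2F factor of the set, had signals of 5.81, 5.99 and 6.10 in imatinib at 24 h and 6.23, 5.81 and 5.69 in PBS at 24 h. At 3 h it had 5.56 and 5.32 in imatinib and 5.51, 5.14 and 5.34 in PBS. The 24 h arrays were above the 3 h arrays without overlap, by a small margin. The difference was 0.53 ± 0.17 in imatinib, which did not pass (limma, adjusted p = 0.0693). In PBS E2f1 rose by 0.58 ± 0.15, 1.5-fold (adjusted p = 0.0219). The PBS difference did not pass without any 1 of 3 arrays, at 0.49 without PBS 3 h replicate 2, at 0.59 without PBS 3 h replicate 3 and at 0.42 without PBS 24 h replicate 1. On single arrays E2f1 lay above as few as 48.7% of all probe sets, near the middle of the array.

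Ccne1 encodes cyclin E1, the partner of CDK2 at the start of S phase. It had signals of 6.19, 6.17 and 6.12 in imatinib at 24 h and 6.33, 6.39 and 6.22 in PBS at 24 h. At 3 h the signals were 5.16 and 5.41 in imatinib and 5.85, 6.04 and 6.07 in PBS. None of the 4 groups overlapped with another, and the imatinib arrays at 3 h stood lowest, beside array medians of 5.17 to 5.25. On single arrays Ccne1 lay above as few as 48.7% of all probe sets, near the middle of the array. Ccne1 rose by 0.88 ± 0.12 in imatinib, 1.84-fold (limma, adjusted p = 0.000581). In PBS the difference was 0.32 ± 0.10, which did not pass (adjusted p = 0.0539). Ccne2 (cyclin E2) ranged from 5.91 to 6.31 at 24 h and from 5.71 to 6.19 at 3 h, with differences of 0.21 in imatinib (-0.15 to 0.57) and 0.15 in PBS (-0.17 to 0.48).

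Cdkn1a encodes p21, a target of the p53 transcription factor that arrests cells after stress and DNA damage. It has 2 start sites in the RefSeq promoter table (GRCm38.p6), 2790 bases apart, and both windows are shown because they differ in motif content, from 250 bases before to 50 after each start, 5′ to 3′. Capitals mark a 20-base p53 element in the upstream window, at chr17:29090729-29091028 (plus strand), and GC boxes, the letters GGGCGG on either strand, in the downstream window, at chr17:29093519-29093818 (plus strand).
Cdkn1a upstream window: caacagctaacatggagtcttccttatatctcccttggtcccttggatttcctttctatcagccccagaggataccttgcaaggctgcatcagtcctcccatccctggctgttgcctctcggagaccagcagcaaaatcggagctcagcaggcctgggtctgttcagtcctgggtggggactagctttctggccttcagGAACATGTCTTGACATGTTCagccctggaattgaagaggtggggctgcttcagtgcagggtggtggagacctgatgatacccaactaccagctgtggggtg
Cdkn1a downstream window: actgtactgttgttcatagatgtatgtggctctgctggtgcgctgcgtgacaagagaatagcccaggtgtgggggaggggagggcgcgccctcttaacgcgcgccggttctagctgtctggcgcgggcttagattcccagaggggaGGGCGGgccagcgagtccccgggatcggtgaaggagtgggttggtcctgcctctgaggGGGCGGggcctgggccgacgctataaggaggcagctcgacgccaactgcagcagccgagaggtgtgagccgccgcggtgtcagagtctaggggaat
The p53 element is a pair of adjacent decamers of the p53 consensus with at most 1 mismatch outside their cores, and it was found in 0.0548% of 32851 promoter windows. A match of letters is a description and shows neither binding nor a cause.

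The Cdkn1a signals were 10.93, 10.90 and 11.09 in imatinib at 24 h and 11.17, 10.74 and 11.33 in PBS at 24 h. At 3 h they were 12.30 and 12.28 in imatinib and 12.18, 11.99 and 12.13 in PBS. All 24 h arrays were below all 3 h arrays, and at both times the signal was among the highest on the array, above 98.4% to 99.8% of probe sets. Cdkn1a fell by 1.31 on the log2 scale in imatinib (SE 0.16), 2.49-fold (limma, adjusted p = 0.000302). In PBS it fell by 1.02 (SE 0.14), 2.03-fold (adjusted p = 0.000448).

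Cdkn1b encodes p27, the inhibitor that holds quiescent cells in G1 and is itself lowered by degradation of the protein. Its promoter window, at chr6:134920151-134920450 (plus strand), is set beside that of Ccne1, at chr7:38107441-38107740 (minus strand), because the 2 gene products act on the same kinase and their signals moved in opposite directions in imatinib. Capitals mark GC boxes, 1 in Cdkn1b and 4 in Ccne1.
Cdkn1b window: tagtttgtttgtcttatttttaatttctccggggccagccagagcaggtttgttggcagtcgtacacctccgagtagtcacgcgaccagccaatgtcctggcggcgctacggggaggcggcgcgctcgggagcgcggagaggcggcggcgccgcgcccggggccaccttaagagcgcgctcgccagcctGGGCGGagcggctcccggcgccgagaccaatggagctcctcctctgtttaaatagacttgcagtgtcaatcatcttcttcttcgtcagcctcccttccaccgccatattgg
Ccne1 window: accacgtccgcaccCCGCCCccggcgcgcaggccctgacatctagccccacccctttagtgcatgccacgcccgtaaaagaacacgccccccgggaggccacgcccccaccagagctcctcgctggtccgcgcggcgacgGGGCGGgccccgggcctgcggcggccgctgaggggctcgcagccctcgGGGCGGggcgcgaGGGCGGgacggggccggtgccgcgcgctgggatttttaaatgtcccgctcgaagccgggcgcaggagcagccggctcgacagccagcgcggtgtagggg
RefSeq promoter windows were matched for 5 of the 10 genes, Ccnd3, Ccne1, Cdkn1a, Cdkn1b and E2f1, with 7 windows in all. A GC box was found in 6 of the 7 windows, all but the upstream window of Cdkn1a, and in 35.7% of all windows. The E2F site (TTTCCCGC, TTTCGCGC, TTTGCCGC or TTTGGCGC on either strand) was in none of the 7 and in 2.26% of all windows. The E-box CACGTG bound by Myc was in none of the 7 and in 7.15% of all windows, which says only that these letters are not in these windows. The E2f1 window, at chr2:154569377-154569676 (minus strand), lies wholly inside the gene, whose 5′ end is at 154569892. The region upstream of that end was not searched, so these matches do not describe it.

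Cdkn1b had signals of 8.47, 8.63 and 8.28 in imatinib at 24 h and 8.21, 8.39 and 8.12 in PBS at 24 h. At 3 h it had 9.24 and 9.37 in imatinib and 9.42, 9.32 and 9.37 in PBS. The 3 h arrays were tightly grouped and all above the 24 h arrays. Cdkn1b fell by 0.84 in imatinib (SE 0.13), 1.79-fold (limma, adjusted p = 0.00128). In PBS it fell by 1.13 (SE 0.11), 2.19-fold (adjusted p = 6.6e-05).

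Cdkn1c encodes p57, an imprinted inhibitor. Its signals were 5.61, 5.96 and 5.75 in imatinib at 24 h and 6.36, 5.95 and 5.67 in PBS at 24 h, against 6.90 and 7.13 in imatinib at 3 h and 6.88, 7.02 and 7.07 in PBS at 3 h. The times did not overlap. Cdkn1c fell by 1.24 in imatinib (SE 0.18), 2.36-fold (limma, adjusted p = 0.00108). In PBS it fell by 0.99 (SE 0.16), 1.99-fold (adjusted p = 0.00145).

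**Figure D2:**
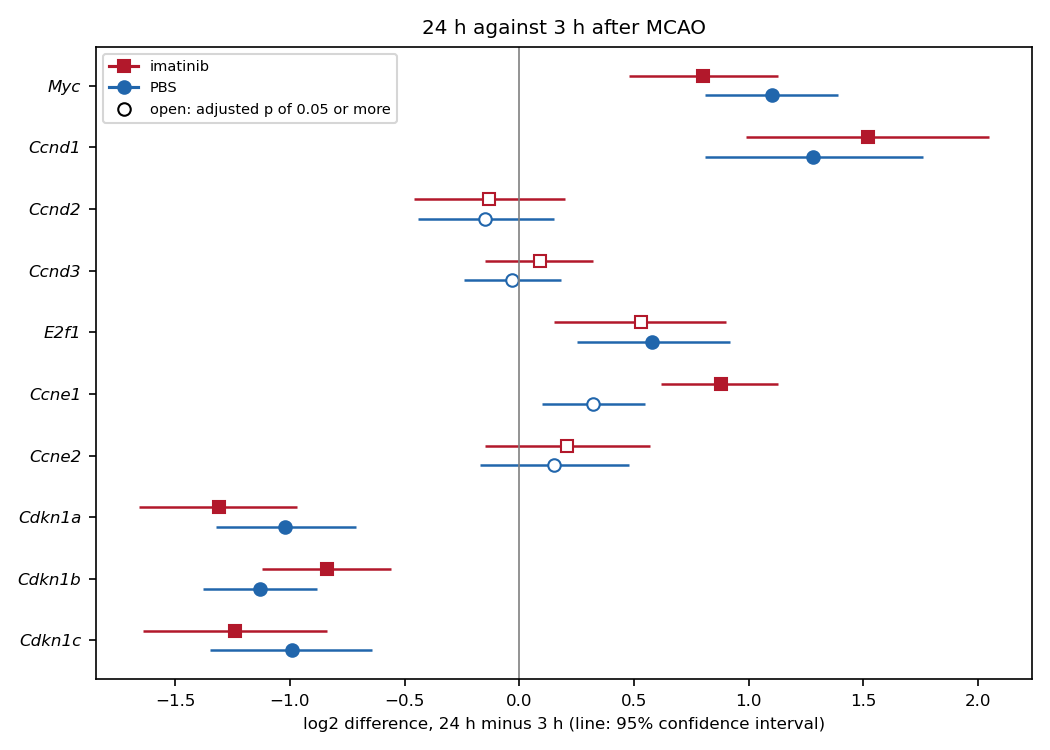
Log2 difference of 24 h minus 3 h for each of the 10 genes in imatinib and in PBS, with lines for 95% confidence intervals from limma; filled symbols passed an adjusted p of 0.05. Ccnd1, Myc, Cdkn1a, Cdkn1b and Cdkn1c passed in both treatments.

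The time differences of both treatments are set side by side in the plot of 24 h minus 3 h. They rest on different arrays but on 1 shared estimate of the spread. Markers of other cells moved with the same contrast. Of 10 monocyte and macrophage markers, 7 were higher at 24 h in each treatment, and their mean signal was 9.19 to 9.52 in imatinib at 24 h, 9.40 to 10.00 in PBS at 24 h, 7.37 to 7.45 in imatinib at 3 h and 7.30 to 7.48 in PBS at 3 h. Of 10 neutrophil markers, 3 were higher in imatinib and 4 in PBS. Of 16 endothelial markers, 7 were lower in imatinib and 10 in PBS, with mean signals of 10.66 to 10.78 in imatinib at 24 h, 10.36 to 10.55 in PBS at 24 h, 11.07 to 11.08 in imatinib at 3 h and 10.91 to 11.06 in PBS at 3 h. Of 10 pericyte markers, 0 passed in imatinib (1 at an unadjusted p under 0.05 in limma) and 7 were lower in PBS. Of 8 smooth muscle markers, 1 was lower in imatinib and 3 in PBS. Of 4 erythroid markers, 1 was lower in imatinib and 3 were higher in PBS. Their part in the changes of the G1 genes was not tested.

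In the comparison of imatinib with PBS at the same time, none of the 10 genes passed the test. At 24 h 0 of the 10 passed in limma, as did 0% of all genes, and 0 of the 10 had an unadjusted p under 0.05, against 6.10% of all genes. At 3 h 0 passed, again with 0% of all genes, and 1 had an unadjusted p under 0.05, against 6.40% of all genes. These comparisons use the same arrays as the time differences above.

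**Figure D3:**
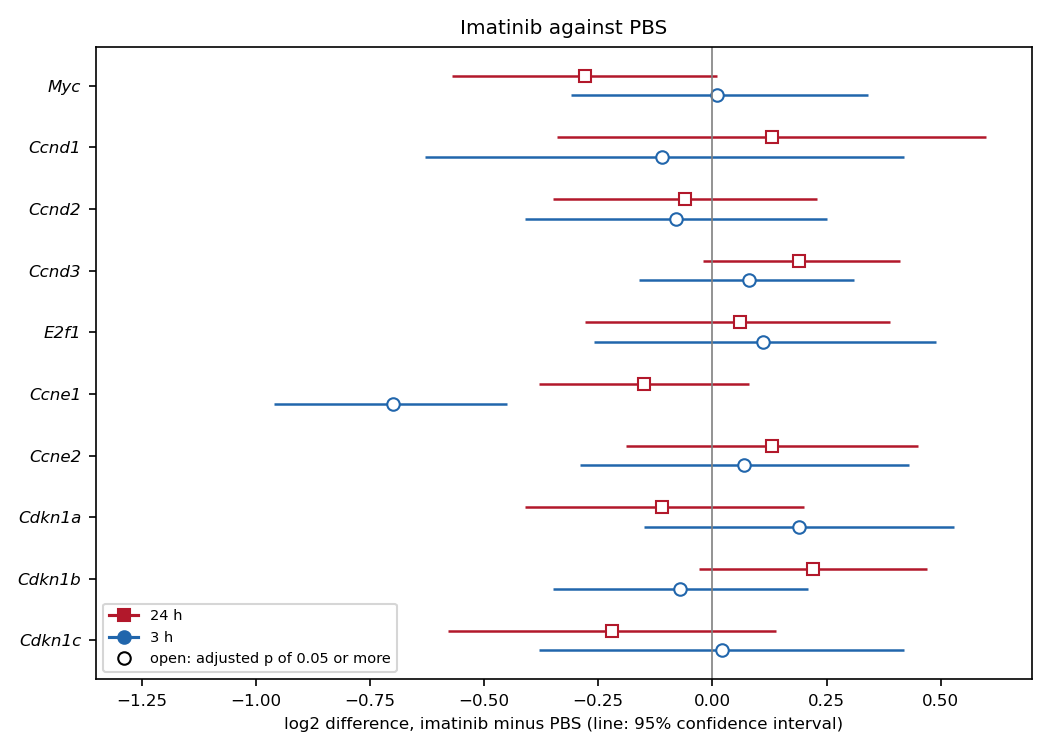
Log2 difference of imatinib minus PBS for each of the 10 genes at 24 h and at 3 h, with lines for 95% confidence intervals from limma; open symbols did not pass an adjusted p of 0.05. The interval of Ccne1 at 3 h, -0.96 to -0.45, is the single one of the 20 that excludes 0.

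The gene whose interval stands apart in the plot of imatinib minus PBS is Ccne1 at 3 h. Its difference was -0.70 ± 0.12 (95% interval -0.96 to -0.45), 1.63-fold lower in imatinib, and both imatinib arrays were below all 3 PBS arrays. By limma's unadjusted p of 7.05e-05 it ranked 7 of 30790 genes, but its adjusted p was 0.303. At 24 h its difference was -0.15 (-0.38 to 0.08), again with all imatinib arrays below all PBS arrays. Of all genes, 6.67% had all imatinib arrays below all PBS arrays at 24 h and 9.14% at 3 h. Cdkn1a at 3 h was the other gene of the 10 without overlap, higher in both imatinib arrays by a mean of 0.19 (-0.15 to 0.53), a pattern that 9.59% of all genes had. In either direction 13.0% of all genes did not overlap at 24 h and 18.7% at 3 h.

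At 24 h the largest difference of the 10 genes was in Myc, at -0.28 (-0.57 to 0.01), followed by Cdkn1b, at 0.22 (-0.03 to 0.47), and Cdkn1c, at -0.22 (-0.58 to 0.14). Ccnd3 differed by 0.19 (-0.02 to 0.41) and Ccnd1 by 0.13 (-0.34 to 0.60). At 3 h Ccnd1 differed by -0.11 (-0.63 to 0.42) and Myc by 0.01 (-0.31 to 0.34). With intervals this wide, differences of the size of those in Ccnd1 could not be told from 0, and a missed threshold does not show that the treatments were alike. At 24 h all 16 endothelial markers had higher means in imatinib (median difference 0.25), and 11 of them had an unadjusted p under 0.05 in limma. This was not particular to endothelial markers. At 24 h 9 of 10 pericyte (median 0.26) and all 5 choroid plexus markers (median 0.46) also had higher means in imatinib. Only 2 of 10 monocyte and macrophage markers (median -0.27) and 1 of 10 neutrophil markers (median -0.27) did. At 3 h all 10 pericyte markers had lower means in imatinib (median -0.29), 2 of them with an unadjusted p under 0.05 in limma. This was not particular to pericytes. No smooth muscle (median -0.25), astrocyte (-0.28), microglial (-0.14) or oligodendrocyte (-0.32) marker had a higher mean in imatinib at 3 h. In the other direction, 14 of 16 endothelial markers (median 0.07) and the 4 erythroid markers (median 0.50) had higher means at 3 h. At 24 h the 4 erythroid markers had lower means in imatinib (median -0.50), all 4 with an unadjusted p under 0.05. Their part in these differences was not tested.

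The interaction compares the imatinib difference at 24 h with that at 3 h. In this contrast 0 of the 10 genes passed in limma, as did 0% of all genes, and 1 had an unadjusted p under 0.05, against 5.49% of all genes. That gene was Ccne1, whose imatinib difference was 0.55 higher at 24 h than at 3 h (95% interval 0.21 to 0.89, adjusted p = 0.867). So although Ccne1 passed over time in imatinib and not in PBS, a difference between the time courses was not established after adjustment. The same holds for E2f1, with an interaction of -0.06 (-0.56 to 0.45). In the same contrast 0 of 4 erythroid and 0 of 10 pericyte markers passed in limma, but 4 of 4 erythroid markers (median -0.97) and 7 of 10 pericyte markers (median 0.54) had an unadjusted p under 0.05. The mean signal of the erythroid markers was 7.03 to 7.35 in imatinib at 24 h, 7.51 to 7.77 in PBS at 24 h, 7.48 to 7.60 in imatinib at 3 h and 6.92 to 7.12 in PBS at 3 h. The part of both marker lists in the Ccne1 difference was not tested.

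Genes around the 10 in the pathway were read from 9 lists. Those said to have risen or fallen passed an adjusted p of 0.05 in limma, and the differences named for them have standard errors of 0.10 to 0.25. For the kinases and activators of G1 and S, 3 of 9 rose at 24 h in imatinib and 5 of 9 in PBS, and none fell. Cdk4, the kinase partner of the D-type cyclins, rose by 0.88 in imatinib and 0.96 in PBS, and Ccna2, the S-phase cyclin, by 0.80 in imatinib and 0.84 in PBS. The 3 h means of Ccna2, 4.78 in imatinib and 4.55 in PBS, were below the lowest array median of 5.17. Of the inhibitors of the INK4 family and factors that degrade cyclin E or CIP/KIP inhibitors, 3 of 11 rose in imatinib and 4 of 11 in PBS, and none fell. Skp2, the ubiquitin ligase subunit that marks p27 for degradation, rose by 0.83 in imatinib and 1.05 in PBS. Cks2 rose by 1.41 in imatinib and 1.33 in PBS. Cks1b, of the same family, rose by 0.66 in PBS (limma, adjusted p = 0.0411). Its imatinib difference of 0.55 did not pass (adjusted p = 0.142). The INK4 genes Cdkn2a, Cdkn2b, Cdkn2c and Cdkn2d did not pass in either treatment. The background shares were 7.76% higher and 5.32% lower for all genes in imatinib, and 9.34% higher and 7.28% lower in PBS.

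**Figure D4:**
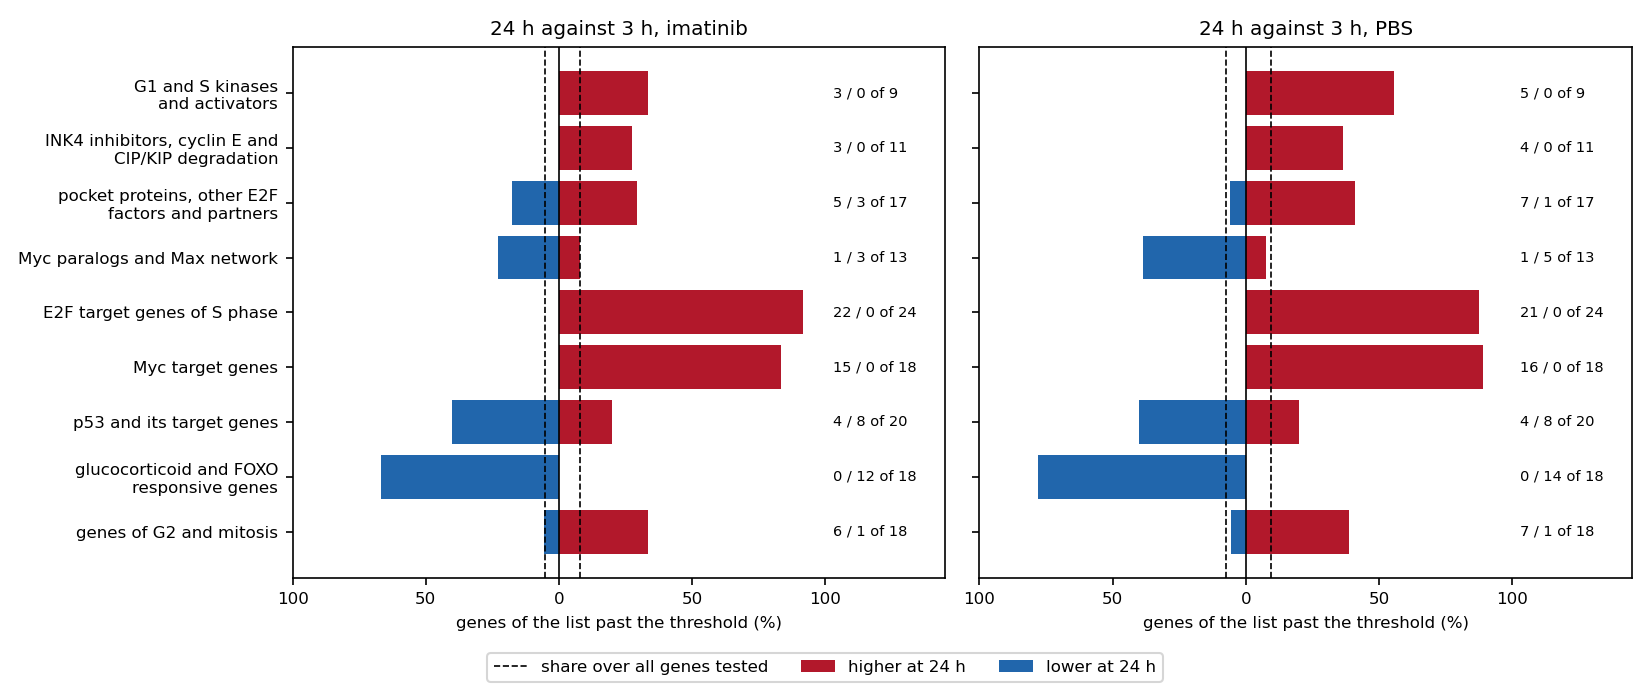
Share of each of 9 pathway lists past an adjusted p of 0.05 for 24 h against 3 h, higher to the right and lower to the left, in imatinib (left panel) and PBS (right panel); numbers are higher / lower of the genes measured and dashed lines mark the shares over all genes tested. The E2F and Myc target lists have 15 to 22 genes higher in each treatment and 0 lower.

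In the plot of list shares, the lists of E2F and Myc target genes have the longest bars. Whether E2f1 or Myc had a part in the rise of these lists was not tested. Of 24 E2F target genes of S phase, 22 rose in imatinib (median 0.93) and 21 in PBS (median 0.95). Among them was Mcm5, a subunit of the replicative helicase, which rose by 2.09 in imatinib and 2.44 in PBS. The 3 h means of Mcm5, 5.34 in imatinib and 5.17 in PBS, stood beside array medians of 5.17 to 5.25. Of 18 Myc target genes, 15 rose in imatinib (median 0.79) and 16 in PBS (median 0.84), among them Srm, the spermidine synthase, by 1.57 in imatinib and 1.8 in PBS. Of 17 pocket proteins, other E2F factors and partners, 5 rose and 3 fell in imatinib and 7 rose and 1 fell in PBS. Tfdp1, a dimer partner of E2F1, rose by 0.91 in imatinib and 1.13 in PBS. The other partner gene, Tfdp2, fell, with differences of -0.46 in imatinib and -0.74 in PBS. Rb1, the retinoblastoma gene, fell by 0.43 in imatinib, and its PBS difference of -0.28 did not pass. Its relative Rbl1 rose by 1.15 in imatinib and 1.06 in PBS.

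A list of 13 genes held the Myc paralogs, Max, which is the dimer partner of Myc, antagonists of Myc that also bind Max, the related Mlx branch and Zbtb17, which binds Myc. Of these, 1 rose and 3 fell in imatinib and 1 rose and 5 fell in PBS. The gene that rose was Mlx, by 0.50 in imatinib and 0.47 in PBS, and the paralog Mycl was among those that fell, with differences of -0.65 in imatinib and -0.66 in PBS. The group means of Mycl, 4.14 to 4.94, were all below the lowest array median of 5.17. The Myc antagonists Mxd4 and Mxi1 both passed: Mxd4 fell by 1.30 in imatinib and fell by 1.55 in PBS, and Mxi1 fell by 1.02 in imatinib and fell by 0.83 in PBS. Max itself differed by -0.10 in imatinib and -0.07 in PBS, and neither passed. Of 18 genes of G2 and mitosis, 6 rose and 1 fell in imatinib and 7 rose and 1 fell in PBS. Top2a, which untangles replicated DNA, rose by 1.46 in imatinib and 1.57 in PBS, while Kif23, a kinesin of cytokinesis, fell by 2.29 in imatinib and fell by 2.53 in PBS. The 3 h means of Top2a, 4.63 in imatinib and 4.61 in PBS, were also below that lowest array median.

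The inhibitors have known inducers, p53 for Cdkn1a, FOXO factors for Cdkn1b and glucocorticoids for Cdkn1c. Other genes under these inducers were listed together with genes of the inducing factors. Of 20 genes of p53 and its targets, 4 rose and 8 fell in each treatment. Trp53, the p53 gene, rose by 0.67 in imatinib and 0.63 in PBS, while the p53 target Trp53inp1 fell by 3.18 in imatinib and fell by 3.19 in PBS and Sesn1 fell by 1.47 in imatinib and fell by 1.42 in PBS. Other p53 targets rose: Bax by 0.62 in imatinib and 0.76 in PBS, and Ccng1 by 0.54 in imatinib and 0.67 in PBS. Mdm2, a classical p53 target, differed by -0.21 in imatinib and -0.10 in PBS and did not pass. Of 18 genes listed as glucocorticoid and FOXO responsive, 12 fell in imatinib (median -0.90) and 14 in PBS (median -0.83), and none rose. This list pools both kinds, which were not counted apart, and includes the factor genes Foxo1, Foxo3, Foxo4 and Nr3c1. Of these, Foxo3 fell in both treatments (-0.82 in imatinib, -0.53 in PBS). Foxo1 and Foxo4 fell in PBS only (-0.53 each), and Nr3c1 passed in neither treatment. Fkbp5, a glucocorticoid-induced chaperone, fell by 2.15 in imatinib and fell by 1.73 in PBS. Whether any of these inducers had a part in the falls of the inhibitor genes was not tested. In the comparisons of imatinib with PBS and in the interaction, 0 genes of any of the 9 lists passed in limma, and 0 to 2 genes of each list had an unadjusted p under 0.05.

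The likeness of profiles over the 11 arrays was measured as the root mean square difference between log2 profiles, each centred on its own mean, over 17802 candidate genes, with no test. Among the 7 genes that passed in either treatment, the inhibitors lay closest together, with 0.25 between Cdkn1b and Cdkn1c, 0.26 between Cdkn1a and Cdkn1c and 0.28 between Cdkn1a and Cdkn1b. Myc lay 0.29 from E2f1 and 0.38 from Ccnd1. Many genes outside the set lay nearer. By distance from Myc, E2f1 ranked 1173 and Ccnd1 2653 of the 17802 candidates. From Cdkn1b, Cdkn1c ranked 433 and Cdkn1a 701, and from Cdkn1c, Cdkn1b ranked 48 and Cdkn1a 74. The genes nearest to Myc were Rpsa (0.10), Mrpl12 (0.11) and Impdh2 (0.11), and those nearest to Ccnd1 were Gart, Ppp1r14b and Aldh18a1 (0.20 each). The nearest to Ccne1 were Zfp446 (0.14), Fam210a (0.16) and Dhx37 (0.17), and to E2f1 Tor2a (0.10), Pcdhb16 (0.11) and Usp10 (0.11). Cdkn1a was nearest to Gabrg1 (0.15), Dgkh (0.15) and Fosl2 (0.16), Cdkn1b to B4galt4 (0.10), Utrn (0.11) and Pltp (0.11), and Cdkn1c to Shroom1, Edn3 and Chn2 (0.20 each). These distances share the arrays and the large difference between the times.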

How the data were processed

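RNA of 11 samples was measured on Affymetrix arrays. Per the labels' protocols, 10 ng of total RNA was amplified and biotinylated with NuGEN kits. The authors deposited log2 signals for 33793 probe sets. Per the submitters' processing notes these came from RMA in Affymetrix Expression Console, and limma was also used. The array type, genome build and tool versions were not given in the sources used here.

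No further normalization was done. Left out were 1591 probe sets with no gene symbol, 128 with more than 1 and 14 whose symbol had become a date. Where a gene had several probe sets (730 genes), the one of highest mean was used, which gave 30790 genes. Groups follow the labels. In limma 3.58.1 (R 4.3.3), 1 mean per group was fitted to all 11 arrays with empirical Bayes moderation (residual df 7, prior df 4.37). Benjamini-Hochberg adjustment ran over the 30790 genes, with a threshold of 0.05. The fit was tested on simulated data. Alternatives were other normalizations, a filter on low values, array weights, a replicate block, a robust trended prior, all probe sets, fewer groups and leaving out each array.

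The 10 genes and the lists were chosen with earlier results of these data known. All 10 were named, with up to 3 genes per direction and list and the 3 genes nearest in profile to each of the 10 that passed. Max, Mdm2, the INK4 genes and values that did not pass beside a named gene were given as known partners, after their values were seen, as were the promoter motifs. Cks1b, Foxo1, Foxo3, Foxo4 and Nr3c1 were also named after their values were seen. Promoter sequences are from RefSeq (GRCm38.p6).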

Additional observations from a re-analysis of the deposited data

Results flagged for a closer look

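The imatinib difference of Ccne1, the cyclin E1 gene, was 0.55 higher at 24 h than at 3 h (95% interval 0.21 to 0.89), and it is given here because the 2 times differed at limma's unadjusted p of 0.00426. It was -0.15 at 24 h and -0.70 at 3 h. The adjusted p over 30790 genes was 0.867, so it failed the correction, and it ranked 147 by p. All 3 imatinib arrays at 24 h and both at 3 h were below the PBS arrays of their time. The imatinib signals at 3 h, 5.16 and 5.41, stood beside array medians of 5.17 to 5.25. In the same contrast 4 of 4 erythroid markers (median -0.97) and 7 of 10 pericyte markers (median 0.54) had an unadjusted p under 0.05, and their part in the Ccne1 difference was not tested.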

How the results depend on the processing

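The number of the 10 genes past the threshold stayed at 5 to 7 over time in imatinib and in PBS under every alternative run, and at 0 in the comparisons of imatinib with PBS and in the interaction. Of 940 values of single genes under an alternative, 895 kept their direction and side of the threshold, 5 lost the threshold, 7 passed it and 33 turned sign. Those that turned did not pass the threshold in any of these fits. With the replicate number as a block (replicate block), 6 of the 10 genes passed in each time comparison and Cdkn1c at 3 h was -0.02. Arrays of the same number did not deviate together (r -0.0373 to 0.0577 over 15 pairs, against -0.0577 to 0.0482 for other numbers). The Ccnd2 interaction was -0.02 after quantile normalization and -0.0033 with array weights. Leaving out 1 array at a time, imatinib differences at 24 h ranged from -0.10 to 0.01 in Ccnd2, -0.28 to 0.02 in Cdkn1a and -0.05 to 0.22 in E2f1. At 3 h they ranged from -0.33 to 0.14 in Ccnd1, -0.26 to 0.11 in Ccnd2, -0.01 to 0.23 in Ccne2, -0.09 to 0.14 in Cdkn1c, -0.22 to 0.25 in Myc and -0.01 to 0.23 in E2f1. Over time, Ccnd2 in imatinib ranged from -0.31 to 0.06 and Ccnd3 in PBS from -0.06 to 0.02. The interaction ranged from -0.01 to 0.46 in Ccnd1, -0.17 to 0.20 in Ccnd2, -0.10 to 0.17 in Ccne2 and -0.17 to 0.10 in E2f1.

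E2f1 in PBS also lost the threshold with only the groups compared (0.58, adjusted p = 0.0542 in limma). In imatinib it passed with median centring (0.57), with genes at or above the median mean or only the groups compared (0.53 each), and without PBS 24 h replicate 1 (0.53). Ccne1 in PBS passed with genes at or above the median mean and without imatinib 3 h replicate 1 or 2 (0.32 each). Over all genes, 4027 passed over time in imatinib, against 2276 and 2274 without imatinib 3 h replicate 1 and 2, where the lone array is assumed to vary like the other groups. Imatinib against PBS passed in 0 genes, and in at most 4 genes at 3 h and 1 at 24 h under an alternative, and the interaction in at most 2. The cause of these shifts was not tested. No gene had another probe set to try.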
